A study of Bos taurus with 16 samples.

Results

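The contractile genes of smooth muscle were followed in endometrium and in circulating WBC (white blood cells), both taken from the same 8 Holstein dairy cows. They were ACTA2, ACTG2, MYH11, MYLK, TPM2, CNN1, TAGLN, LMOD1, SMTN and DES, chosen by name, 10 of the 26554 distinct gene names on the array. Every probe of the array that was no control and carried 1 of these 10 gene names was kept, which gave 29 of 46615 probes. ACTA2 had 1 probe, CNN1, LMOD1, MYLK and TAGLN had 2 each, ACTG2 had 3, DES, MYH11 and SMTN had 4 each, and TPM2 had 5. All 29 probes were 60 bases long, lay on 1 spot each and were free of outlier marks on all 16 arrays.

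Cows 841, 850, 877 and 883 were healthy and cows 718, 833, 836 and 846 had subclinical endometritis (SCE), an inflammation of the uterine lining without clinical signs that the study diagnosed by histology and cytobrush cytology. Both groups were sampled at 45 to 55 days post-partum (DPP). WBC RNA came from whole blood drawn into PAXgene tubes, and endometrial RNA came from 1 biopsy per cow, taken through the cervix at the base of the uterine horn on the side of the corpus luteum, so each endometrial value is a mixture of all cell types in that piece. The labels do not give the stage of the oestrous cycle of each cow, the groups were not balanced for it according to the methods of the study, and its part in the comparison of SCE with healthy cows was not tested. The 8 WBC arrays shared 1 slide and the 8 endometrial arrays the other, which means that slide and tissue cannot be told apart. Each row of 4 arrays on a slide held 2 healthy and 2 SCE cows.

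Smooth muscle cells shorten when myosin pulls on actin filaments. Contraction starts when calcium activates myosin light chain kinase, which phosphorylates the myosin light chain, and it is tuned by proteins bound along the actin filament. In the uterus these cells form the myometrium, the muscle coat below the endometrium, and they also line the walls of the arteries that run through the endometrium, so an endometrial biopsy can hold muscle from either source. In bulk tissue, fewer muscle cells and less RNA per muscle cell cannot be told apart.

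Values are log2 normalised signals of single probes, compared between arrays. The median signal above local background was 83.0 to 202.5 intensity units on the WBC arrays and 79.0 to 316 on the endometrial arrays. The lowest of these, 79.0, was the endometrium of SCE cow 833, which was also the least similar to the other endometrial arrays (median correlation over probes of 0.940 against 0.973 to 0.979). The WBC array of the same cow had the highest signal of its tissue, 202.5 against 83 to 132, and was the least similar to the other WBC arrays (0.972 against 0.984 to 0.989). Of the marker lists, 9 of 10 leukocyte genes were lower and 9 of 10 endothelial genes were higher in endometrium than in WBC (limma, adjusted p at or below 0.05, in healthy and in SCE cows). Of all probes, 19.7% were higher and 26.8% lower in endometrium in healthy cows, and 19.3% and 26% in SCE cows. Markers of stroma and epithelium were mixed, and the share of epithelial genes that were lower was near that of all probes. Of 9 stromal genes, 6 were higher and 1 was lower in endometrium in healthy cows (6 and 2 in SCE cows), and of 10 epithelial genes, 4 were higher and 3 lower (5 and 2 in SCE cows).

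The first question was where the contractile genes were expressed. In healthy cows 23 of the 29 probes had higher expression in endometrium than in WBC, against 19.7% of all 46598 probes tested (limma TREAT with a threshold of 1.2-fold, adjusted p at or below 0.05). In SCE cows 23 of 29 were higher, against 19.3% of all probes. Only 1 probe of SMTN was lower in healthy cows, where 26.8% of all probes were lower, and none of the 29 was lower in SCE cows, where 26% of all probes were. The 23 higher probes covered all 10 genes. Without cow 833, whose biopsy stood apart, 22 of 29 were higher in SCE cows. The median difference of the 29 probes was 3.55 on the log2 scale in healthy cows and 3.22 in SCE cows, beside medians of −0.15 and −0.16 over all probes. With normalisation within each tissue the median of all probes moved to 0.36 in healthy cows and the share of calls that were higher in endometrium moved from 42.3% to 80.3% (in SCE cows the median moved to 0.36 and the share from 42.6% to 80.9%). With signals scaled to the 75th percentile the median moved to −0.46 in healthy and −0.36 in SCE cows. Relative to the median of all probes, the median contractile probe in healthy cows was 3.70 higher in endometrium with quantile normalisation over all arrays and 4.01 and 4.15 higher with these other scalings.

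**Figure D1:**
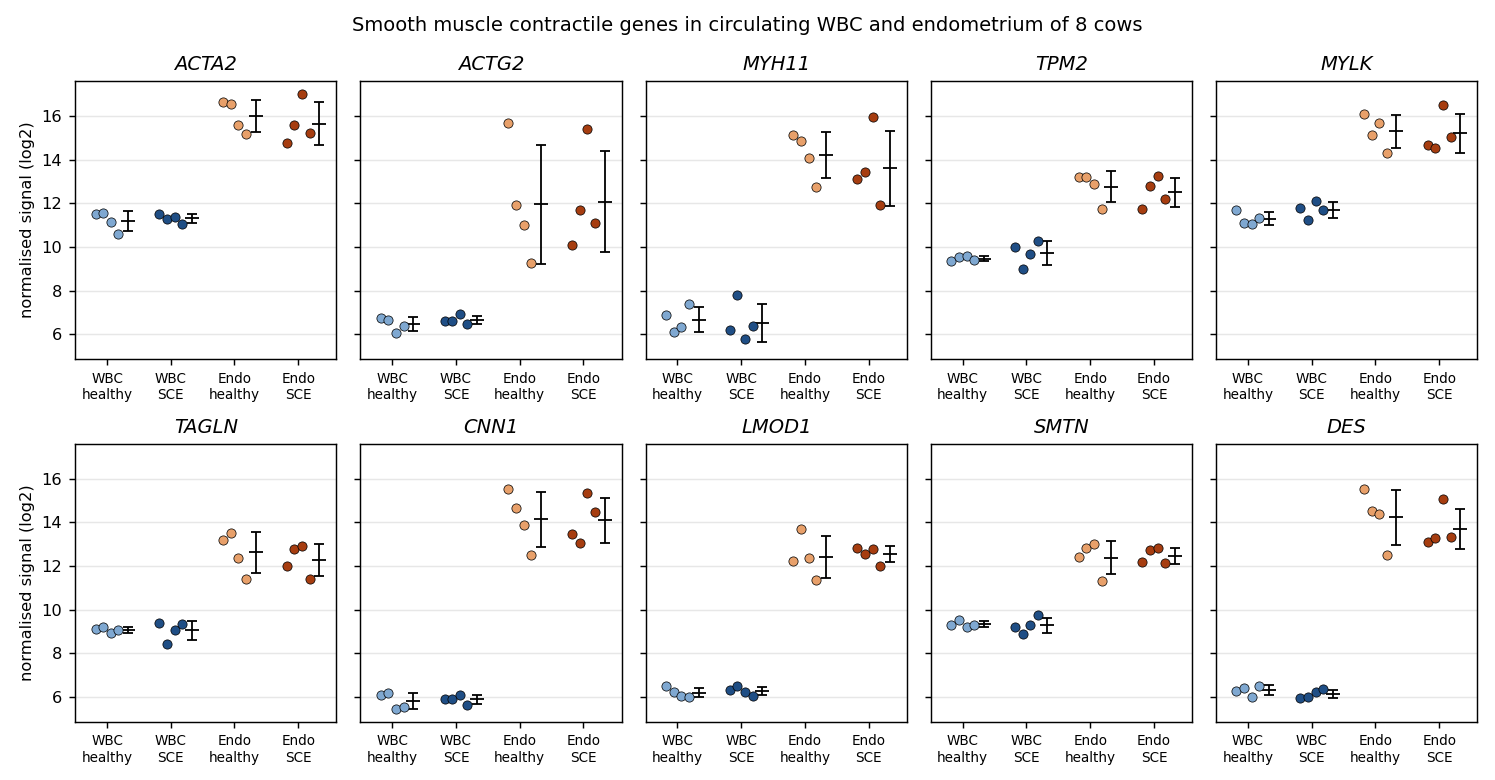
Normalised log2 signal (vertical axis) of the probe of each gene with the highest mean over the endometrial arrays, in the 4 groups (horizontal axis); points are cows, in the order 841, 850, 877, 883 for healthy and 718, 833, 836, 846 for SCE cows, and bars are mean and SD (n = 4). Every endometrial point lies above every WBC point of the same gene, and in ACTG2 the endometrial points of cows 841 and 836 stand far above the other 6.

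The actins form the thin filament. ACTA2 encodes the smooth muscle alpha-actin, also made by myofibroblasts, and ACTG2 the gamma-actin typical of visceral (enteric and uterine) muscle. For healthy cows 841, 850, 877 and 883 the endometrial signal of ACTA2 was 16.64, 16.58, 15.58 and 15.18. For SCE cows 718, 833, 836 and 846 it was 14.78, 15.61, 17.03 and 15.23. Its WBC signal was 11.51, 11.57, 11.15 and 10.58 in the healthy cows and 11.54, 11.29, 11.39 and 11.05 in the SCE cows, well above background on all 8 arrays. The tissues did not overlap, and ACTA2 was 27.7-fold higher in endometrium in healthy cows (log2 difference 4.79 ± 0.42 SE, limma adjusted p = 2.01e-07) and 20.3-fold higher in SCE cows.

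ACTG2 spanned the widest range of the 10 genes among the biopsies. On its probe A_73_P082186, in the same order of cows, the endometrial signal was 15.71, 11.92, 11.00 and 9.25 for the healthy cows and 10.11, 11.72, 15.39 and 11.09 for the SCE cows. Healthy cow 841 was thus 88.0-fold above healthy cow 883. In WBC this probe gave 6.04 to 6.92 and was well above background on 2 of 4 healthy and 3 of 4 SCE arrays. The tissues did not overlap on it: the difference was 5.51 ± 1.13 in healthy cows (limma adjusted p = 0.000866) and 5.41 ± 1.13 in SCE cows. Probe A_73_115488 followed the same cows, with 14.63 in cow 841, 13.99 in cow 836 and 8.33 in cow 883.

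MYH11 is the heavy chain of smooth muscle myosin, the motor itself, and MYLK is the kinase that switches this motor on. The endometrial signal of MYH11 (probe A_73_103577) was 15.15, 14.86, 14.06 and 12.77 in the healthy cows and 13.11, 13.42, 15.97 and 11.91 in the SCE cows, in the order used above. In WBC it was 5.78 to 7.79 and was well above background on 2 of 4 healthy and 1 of 4 SCE arrays, so the size of its tissue difference rests in part on values near background. The difference was 7.54 ± 0.72 in healthy cows (limma adjusted p = 4.30e-07) and 7.07 ± 0.72 in SCE cows, without overlap. Of the other 3 MYH11 probes, A_73_P035431 reached 13.16 in cow 836, while A_73_P162812 and A_73_P106816 stayed at or below 7.97 and were well above background on 6 and 5 of the 8 endometrial arrays. Probe A_73_P106816 was the one of these 4 that did not pass in either group of cows (difference 0.88 in healthy cows, limma adjusted p = 0.121).

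MYLK was well above background in both tissues. Its endometrial signal was 16.10, 15.15, 15.66 and 14.33 in the healthy cows and 14.69, 14.54, 16.53 and 15.06 in the SCE cows, and its WBC signal ran from 11.04 to 12.12. The difference was 4.02 ± 0.41 in healthy cows (16.2-fold, limma adjusted p = 1.12e-06) and 3.50 ± 0.41 in SCE cows (11.3-fold). The pair of MYLK probes shares 53 bases, so their agreement repeats 1 measurement.

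TPM2, CNN1, TAGLN, LMOD1 and SMTN bind along or at the end of the actin filament. TPM2 (beta-tropomyosin) lies in the groove of the filament and CNN1 (calponin) binds actin and restrains myosin. The endometrial signal of CNN1 was 15.52, 14.66, 13.88 and 12.53 in the healthy cows and 13.46, 13.07, 15.37 and 14.49 in the SCE cows, while its WBC signal was 5.45 to 6.18 and not well above background on any of 8 arrays. CNN1 was therefore at least 293-fold higher in endometrium in healthy cows and at least 273-fold higher in SCE cows (limma adjusted p = 5.00e-09 and 6.29e-09). The bound sets the endometrial mean against a mean WBC level. On each WBC array that level is the probe's own signal or the lowest signal that counted as above background, whichever is higher. On TPM2 probe A_73_P252846 the endometrial signal was 13.22, 13.23, 12.90 and 11.74 in the healthy cows and 11.74, 12.80, 13.27 and 12.22 in the SCE cows, and the WBC signal was 8.98 to 10.26. TPM2 was 9.87-fold higher in endometrium in healthy cows and 6.88-fold higher in SCE cows, with no overlap. Of its 5 probes, 3 passed in both groups and 2 did not: A_73_P040371 lay at 6.69 to 7.66 in endometrium and 6.59 to 7.77 in WBC, and A_73_P100526 was well above background on 3 of 16 arrays.

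TAGLN (transgelin, an early marker of smooth muscle differentiation) had endometrial signals of 13.18, 13.52, 12.39 and 11.42 in the healthy cows and 11.99, 12.80, 12.93 and 11.39 in the SCE cows, against 8.43 to 9.39 in WBC. Its difference was 3.55 ± 0.41 in healthy cows (11.7-fold, limma adjusted p = 4.33e-06) and 3.22 ± 0.41 in SCE cows. LMOD1 (leiomodin, which starts new actin filaments) had 12.23, 13.71, 12.36 and 11.35 in healthy and 12.83, 12.58, 12.79 and 12.01 in SCE endometrium. Its WBC signal was 6.01 to 6.52, well above background on 0 of 4 healthy and 1 of 4 SCE arrays, and it was at least 73.7-fold higher in the endometrium of healthy cows. SMTN (smoothelin, found in contractile smooth muscle) had 12.40, 12.82, 13.01 and 11.33 in healthy and 12.18, 12.76, 12.83 and 12.14 in SCE endometrium on probe A_73_P037121, against 8.90 to 9.74 in WBC. The difference was 3.06 ± 0.30 in healthy cows and 3.19 ± 0.30 in SCE cows. Taking for each of the 10 genes its probe of highest endometrial mean, SMTN A_73_P037121 had the narrowest range among the SCE biopsies, 0.70 on the log2 scale. SMTN A_73_P254421, described below, spanned 3.65 there.

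DES encodes desmin, the intermediate filament protein of muscle cells. On probe A_73_P419516 its endometrial signal was 15.53, 14.51, 14.38 and 12.52 in the healthy cows and 13.13, 13.28, 15.06 and 13.32 in the SCE cows. In WBC this probe gave 5.98 to 6.52 and was well above background on 1 of 4 healthy and 0 of 4 SCE arrays. The difference was 7.93 ± 0.50 in healthy cows (limma adjusted p = 4.04e-09) and at least 187-fold in SCE cows.

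**Figure D2:**
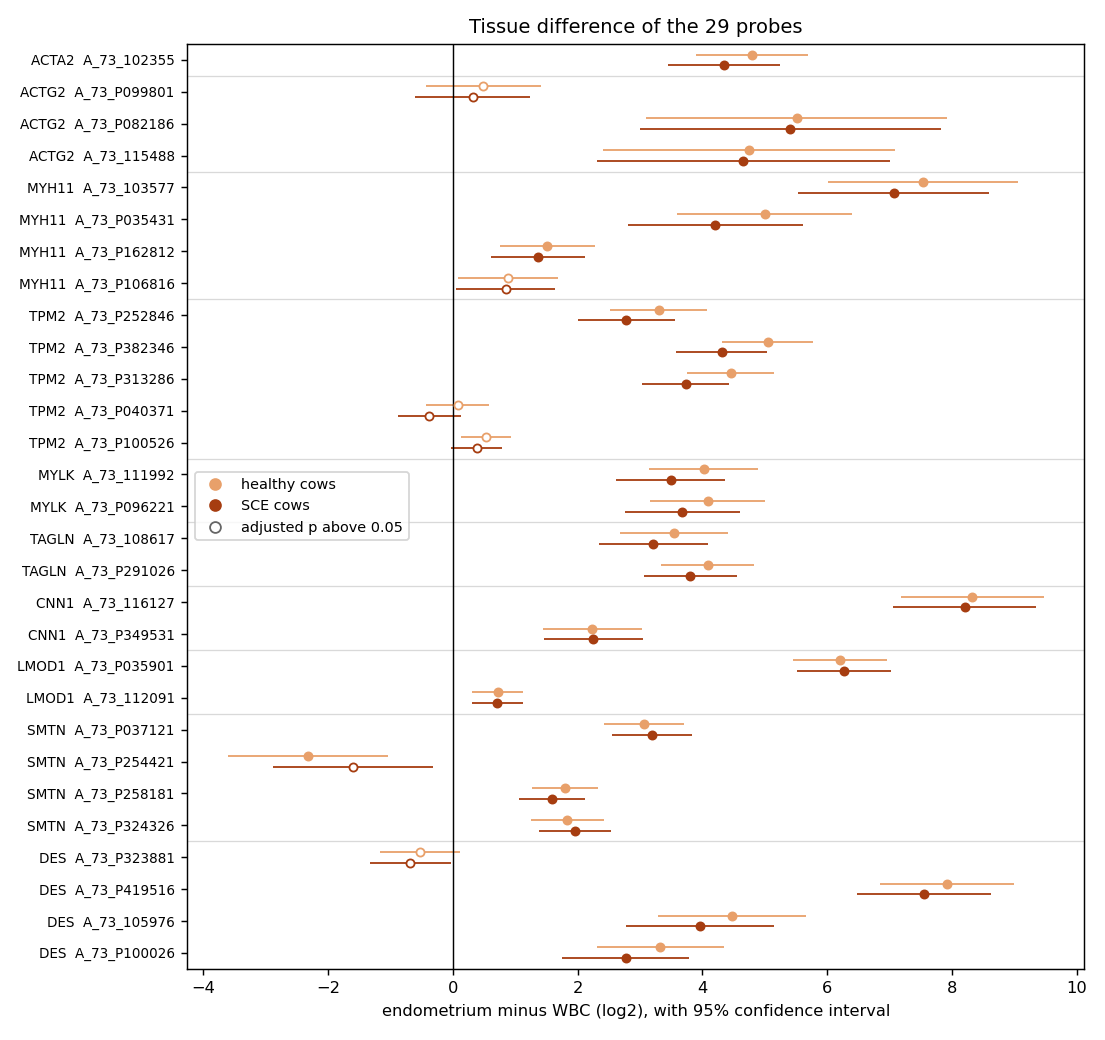
Endometrium minus WBC (log2, horizontal axis) of each of the 29 probes in healthy and in SCE cows, with 95% confidence intervals from limma; open points did not pass an adjusted p of 0.05. The 23 probes that passed in both groups of cows lie between 0.71 and 8.32. In ACTG2, DES and SMTN 1 probe each lies near or below 0 while the other probes of these genes lie above it. TPM2 A_73_P040371 also lies near 0 in healthy cows and below 0 in SCE cows.

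Probes of 1 gene did not always give the same picture, and DES, ACTG2 and SMTN each had 1 probe whose tissue difference departed from that of the others. TPM2 A_73_P040371, described above, also departed, with 0.079 in healthy and −0.37 in SCE cows. The discordant probes of DES, ACTG2 and SMTN are followed here. The probe with the highest mean over all 16 arrays, the rule by which a probe stood for each gene, was for DES and ACTG2 a probe that gave as much signal in WBC as in endometrium. The probe with the highest endometrial mean, used above, was chosen for these 2 genes after the values were seen. For the other 8 genes both choices gave the same probe. The sequences below are those printed in the scanner files, 5′ to 3′ and all in lower case, with 1 discordant and 1 concordant probe each for DES and SMTN, so that a reader can compare what each spot would capture. Positions are as the scanner files give them. The headers name the cattle build HGSC Btau_3.1, whereas the study's methods name another assembly for the array's design, so the build behind the positions is uncertain, and they were not checked against a genome.
DES A_73_P323881 (chr2:111753764-111753823, plus strand): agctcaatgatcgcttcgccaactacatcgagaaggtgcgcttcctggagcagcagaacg
DES A_73_P100026 (chr2:111755214-111755392, plus strand): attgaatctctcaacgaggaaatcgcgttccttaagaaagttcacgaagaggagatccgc
SMTN A_73_P254421 (chr17:73398953-73400099, plus strand): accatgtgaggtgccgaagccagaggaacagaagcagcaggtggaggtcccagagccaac
SMTN A_73_P258181 (chr17:73406605-73407595, plus strand): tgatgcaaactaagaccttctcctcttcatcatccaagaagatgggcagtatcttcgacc
Where the interval is longer than 60 bases, the bases of the probe are not contiguous in the genome. The files list up to 4 transcript accessions for each probe, and matched to RefSeq genes these named a second gene for 2 of the 29 probes, beside 191 of all 46615, while 1 of the 29 (ACTG2 A_73_P082186) and 18579 of all probes matched no RefSeq gene. The 2 were the discordant probes of DES and ACTG2. DES A_73_P323881 was also listed for VIM (vimentin, the intermediate filament protein of leukocytes and stroma) and PRPH (peripherin), and ACTG2 A_73_P099801 was also listed for ACTC1 (cardiac alpha-actin). For the SMTN probe the files listed SMTN alone.

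The values of the discordant probes were as follows. DES A_73_P323881 gave 12.51 to 13.48 in WBC and 11.52 to 12.95 in endometrium, a tissue difference of −0.52 ± 0.30 in healthy and −0.68 ± 0.30 in SCE cows, neither of which passed (limma adjusted p = 0.337 and 0.176). On it, SCE cow 836 was the lowest biopsy, whereas the other 3 DES probes put cow 836 in second place. Of the 5 VIM probes of the array, the one with the highest mean gave 17.81 to 18.21 in WBC and 16.62 to 17.92 in endometrium. ACTG2 A_73_P099801 gave 11.11 to 11.81 in WBC and 13.31 and 12.94 in the endometrium of cows 841 and 836 against 11.06 to 12.23 in the other 6. Its tissue difference was 0.49 ± 0.43 in healthy cows (limma adjusted p = 0.510) and fell to −0.022 without cow 841. Of the 2 ACTC1 probes, the one with the higher mean gave 10.53 to 11.22 in WBC and 9.51 to 10.31 in endometrium. Whether VIM or ACTC1 transcripts contributed to these spots was not tested.

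SMTN A_73_P254421 ran against the other 3 SMTN probes. It gave 12.33, 12.01, 11.55 and 11.57 in the WBC of healthy cows and 12.08, 10.73, 11.87 and 12.31 in those of SCE cows. In endometrium it gave 9.34, 9.48, 9.92 and 9.45 in healthy cows and 9.02, 12.67, 9.31 and 9.60 in SCE cows, so SCE cow 833 alone reached the level of WBC. It was 4.99-fold lower in endometrium in healthy cows (limma adjusted p = 0.00626). In SCE cows the difference was −1.60 ± 0.60 with an adjusted p of 0.0537, and without cow 833 the test called 1 of the 29 probes lower in place of none.

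**Figure D3:**
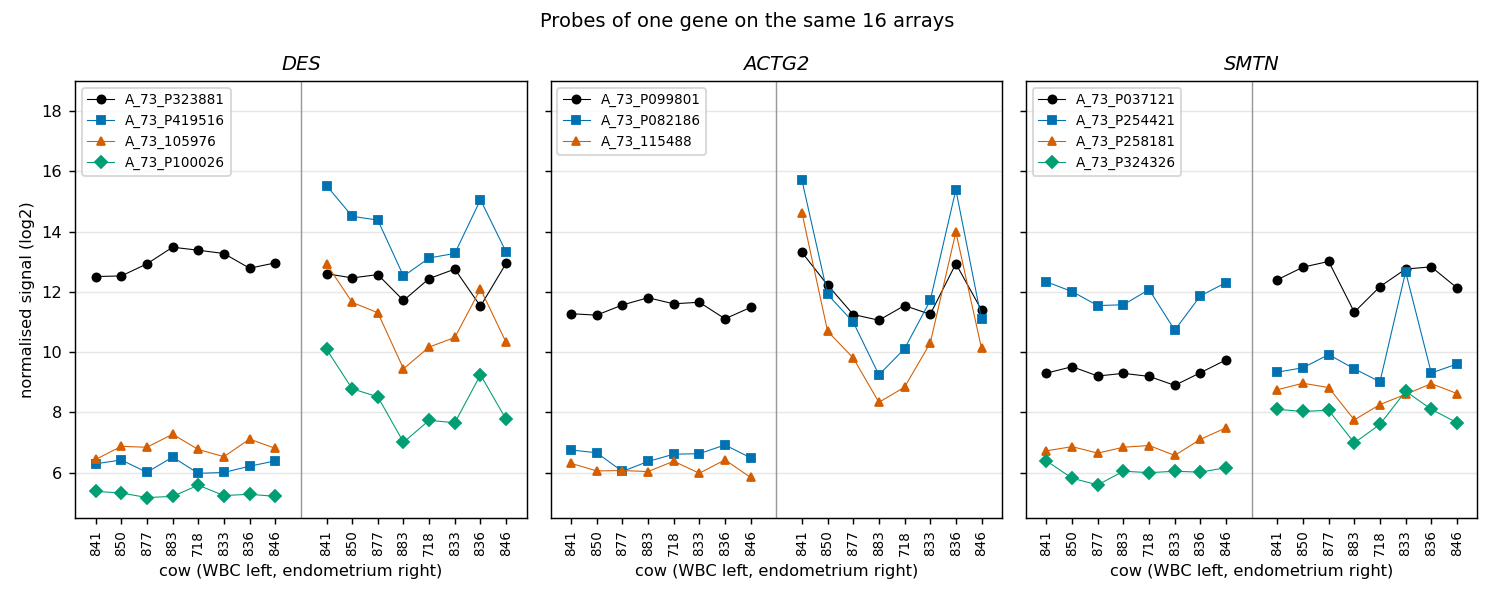
Normalised log2 signal (vertical axis) of every DES, ACTG2 and SMTN probe on the 16 arrays, WBC left and endometrium right, cows on the horizontal axis. The DES and ACTG2 probes drawn as black circles are as high in WBC as in endometrium, the SMTN probe drawn as blue squares is higher in WBC except for cow 833, and the other probes rise and fall together over the biopsies.

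Elsewhere the probes of a gene ordered the biopsies alike. Over the 8 endometrial arrays, 15 of the 19 further probes had a Pearson correlation of 0.85 to 0.997 with the brightest endometrial probe of their gene. The exceptions were DES A_73_P323881 (−0.05), SMTN A_73_P254421 (0.30), TPM2 A_73_P040371 (0.57) and TPM2 A_73_P100526 (−0.26). These are descriptions over arrays that share labelling and slide.

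The second question was how far the biopsies differed in these genes. The SD between cows of 1 group, pooled over healthy and SCE endometrium, had a median of 0.79 over the 29 probes (log2), while the 27859 probes that were well above background on all 8 endometrial arrays had a median of 0.33 and a 95th percentile of 0.98. Of the 29 probes, 28 lay above that median and 9 above that percentile. The 9 were probes of ACTG2, MYH11, DES and CNN1, and SMTN A_73_P254421 (1.21), where SCE cow 833 stood apart. No probe of ACTA2, TAGLN, MYLK, LMOD1 or TPM2 was among the 9, and probes of 1 gene that vary together are not separate evidence. Those above the percentile included ACTG2 A_73_P082186 (2.53), MYH11 A_73_103577 (1.42), CNN1 A_73_116127 (1.16) and DES A_73_P100026 (1.05). In WBC the same 4 probes had SDs of 0.26, 0.74, 0.29 and 0.14.

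The same cows were high for nearly all genes. The mean deviation from the 8-biopsy mean over the 10 genes was 1.21 in SCE cow 836, 1.06 in healthy cow 841, 0.58 in healthy cow 850, 0.01 in healthy cow 877, −0.25 in SCE cow 833, −0.63 in SCE cow 846, −0.71 in SCE cow 718 and −1.27 in healthy cow 883. Cow 836 was above the mean for 10 of 10 genes and was the highest for 4. Cow 883 was among the lowest 2 for 10 of 10 genes and was the lowest for 6. The highest and the lowest biopsy were thus 2.48 apart on the log2 scale, and 1.78 apart with the probes of highest mean over all 16 arrays. Each group held a high and a low biopsy, namely cows 841 and 883 among the healthy and cows 836 and 718 among the SCE cows. In WBC no cow deviated by more than 0.24 on this mean, but there these probes of CNN1, LMOD1, DES, MYH11 and ACTG2 were well above background on 0, 1, 1, 3 and 5 of 8 arrays, so WBC deviations, SDs and correlations of these 5 genes rest in part on values near background.

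**Figure D4:**
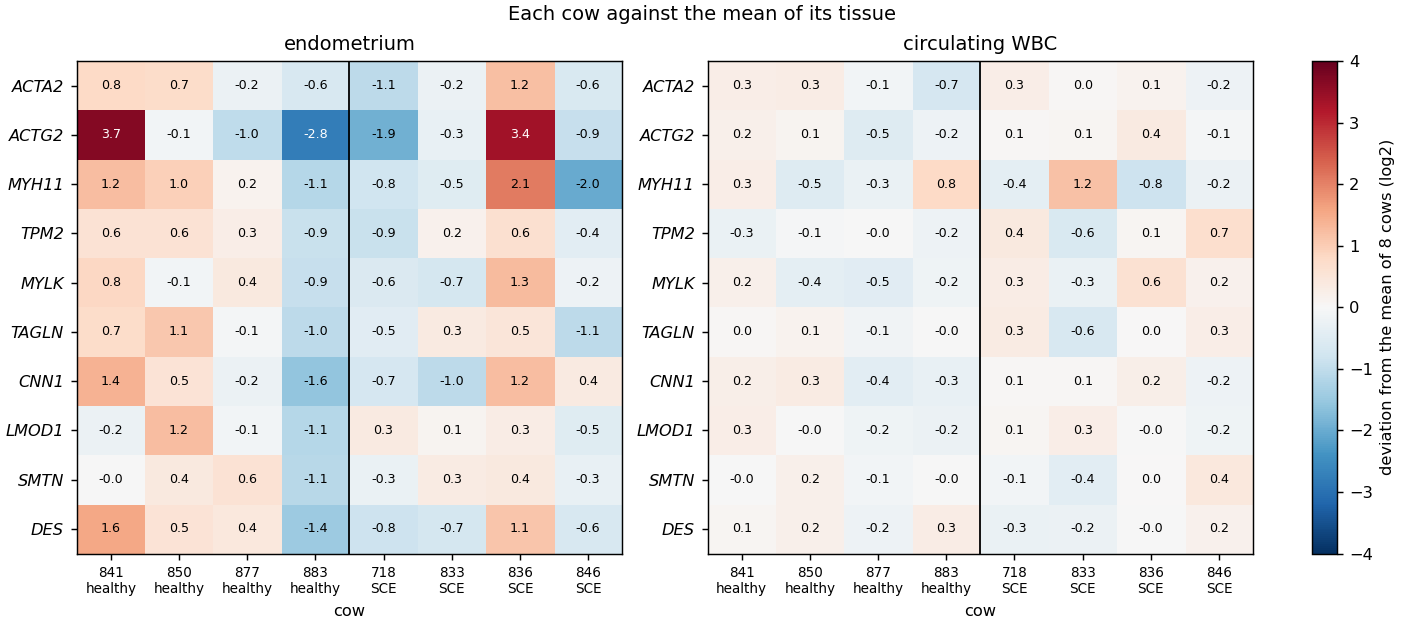
Deviation of each cow (horizontal axis) from the mean of the 8 cows of its tissue (log2, colour and printed value) for the 10 genes (vertical axis), endometrium left and WBC right, each gene by its brightest endometrial probe. In endometrium the columns of cows 841 and 836 are high and that of cow 883 is low in most genes, and in WBC a single value, MYH11 in cow 833, lies above 1.

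Genes varied together over the biopsies. With MYH11, the motor gene, as reference, 9 relations were computed over the 8 endometrial arrays with the probes of highest mean over all arrays. Correlation with MYH11 was 0.91 for ACTA2 (Spearman rho 0.88, exact permutation p = 0.00260 and 0.00724, adjusted p = 0.0234 and 0.0217), 0.85 for TAGLN (rho 0.88, exact permutation p = 0.0104 and 0.00724, adjusted p = 0.0319 and 0.0217) and 0.83 for TPM2 (rho 0.88, exact permutation p = 0.0142 and 0.00724, adjusted p = 0.0319 and 0.0217). It was 0.82 for ACTG2 on its probe that is also listed for ACTC1 (rho 0.69, exact permutation p = 0.0118 and 0.0694, adjusted p = 0.0319 and 0.0892). For MYLK it was 0.80 (rho 0.81, exact permutation p = 0.0201 and 0.0218, adjusted p = 0.0361 and 0.0490). CNN1 (0.68, rho 0.71), SMTN (0.60, rho 0.74) and LMOD1 (0.52, rho 0.48) had adjusted exact permutation p-values of 0.0825 to 0.273. Thus 5 of 9 relations passed by Pearson's r and 4 by Spearman's rho. Over 16547 other genes well above background on all 8 endometrial arrays, 0.314% had a Pearson r with MYH11 at or above 0.80, the lowest of these 5. DES had −0.42 (rho −0.33, exact permutation p = 0.302 and 0.428, adjusted p = 0.302 and 0.428) on its probe that is also listed for VIM. On probe A_73_P419516 it had 0.87 (rho 0.83, exact permutation p = 0.00675 and 0.0154, adjusted p = 0.0255 and 0.0346). ACTG2 on probe A_73_P082186 had 0.81 (rho 0.79, exact permutation p = 0.0136 and 0.0279, adjusted p = 0.0255 and 0.0419). With these brightest endometrial probes DES and ACTG2 thus passed by both measures, beside ACTA2, TAGLN, TPM2 and MYLK.

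Without cows 836 and 846, the farthest from the median of MYH11, Pearson's r with MYH11 was 0.93 for ACTA2, 0.88 for TAGLN, 0.89 for TPM2, 0.85 for ACTG2, 0.86 for MYLK, 0.96 for CNN1, 0.58 for SMTN and 0.49 for LMOD1. DES changed sign to 0.52 on the probe also listed for VIM. For each relation that passed, Pearson's r was higher without those 2 cows. No p-value or rho was computed without them, so whether these relations would still pass is not known. Rows of a slide and groups hold 4 cows each, too few for values within them. Over all 45 pairs of the 10 genes, with the brightest endometrial probe of each, the median Pearson r was 0.77 (0.23 to 0.92) in endometrium and 0.10 in WBC.

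The third question was whether SCE and healthy cows differed in these genes. In endometrium none of the 29 probes passed TREAT in limma, with 0% of all 46598 probes passing after adjustment and 0.453% without adjustment, where again none of the 29 passed. The smallest unadjusted p of the 29 was 0.462. None of them separated the groups, against 1.63% of all probes whose SCE and healthy values did not overlap. The probe values were lower in SCE for 20 of 29 probes, against 50.9% of all probes. The count fell to 13 of 29 without healthy cow 841, rose to 28 of 29 without healthy cow 883 and was 20 of 29 without SCE cow 833. The difference, SCE minus healthy, was −0.33 ± 0.52 SE for ACTA2, −0.61 ± 0.86 for MYH11, −0.11 ± 0.51 for MYLK, −0.26 ± 0.42 for TPM2, −0.05 ± 0.70 for CNN1, −0.35 ± 0.51 for TAGLN, 0.14 ± 0.45 for LMOD1 and 0.08 ± 0.37 for SMTN. It was 0.11 ± 1.52 for ACTG2 and −0.54 ± 0.66 for DES on their brightest endometrial probes.

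These intervals were wide. The 95% confidence interval ran from −2.58 to 1.36 for MYH11 and from −3.37 to 3.59 for ACTG2, so differences of several-fold in either direction were compatible with the 4 cows of each group. The narrowest, for SMTN, ran from −0.76 to 0.93.

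Within the 2 rows of the endometrial slide the directions were opposite. In the first row, with healthy cows 841 and 850 and SCE cows 718 and 833, SCE was lower for 26 of 29 probes, 21 of them without overlap, and the median difference was −0.95. Over all probes, 51.2% were lower in this row and 17.3% were lower without overlap. In the second row, with healthy cows 877 and 883 and SCE cows 836 and 846, SCE was higher for 28 of 29 probes, 5 of them without overlap, and the median difference was 0.52. Over all probes, 47.1% were higher in this row and 12.6% were higher without overlap. ACTG2 differed by −2.90 in the first row and by 3.12 in the second, CNN1 by −1.82 and 1.72, and MYH11 by −1.74 and 0.52. No test was made with 2 cows on each side. With the row as a term in the model, none of the 29 probes passed with or without adjustment. Row and cow cannot be told apart here.

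**Figure D5:**
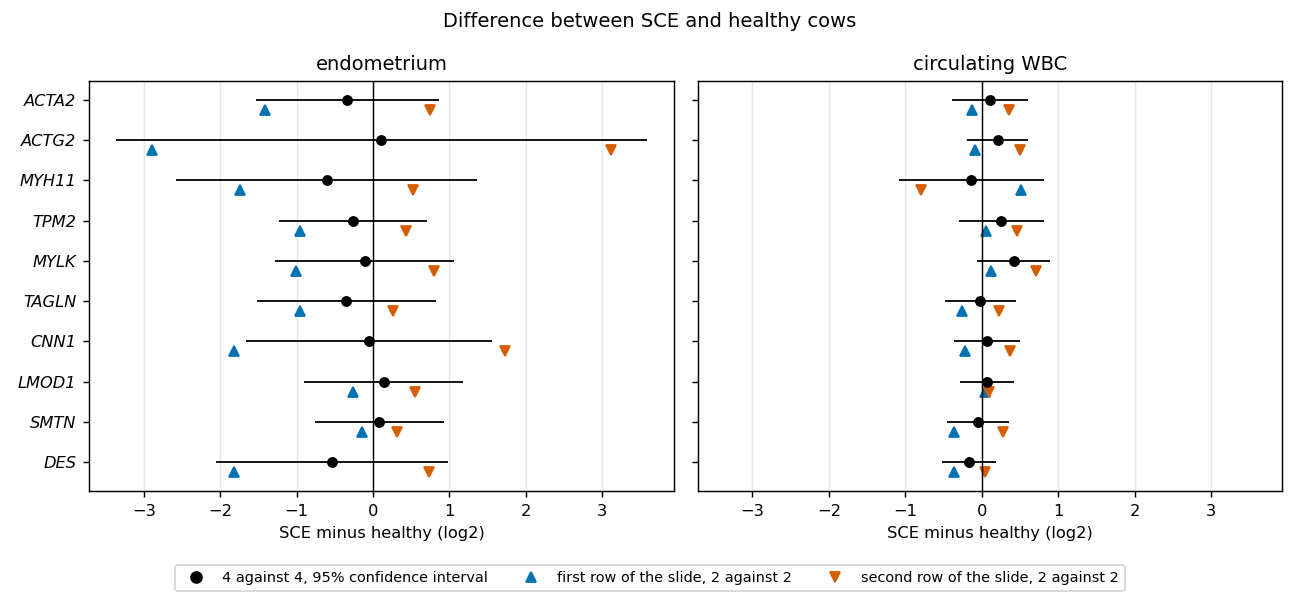
SCE minus healthy (log2, horizontal axis) for the 10 genes (vertical axis), each by its brightest endometrial probe, in endometrium (left) and WBC (right); black points are 4 against 4 cows with 95% confidence intervals, triangles are the differences of 2 against 2 cows within each row of the slide. In endometrium all 10 intervals span 0, and all 10 first-row differences are below 0 and all 10 second-row differences above it.

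In WBC none of the 29 probes passed TREAT in limma either, with 0% of all probes passing after adjustment and 0.122% without, and with the smallest unadjusted p of the 29 at 0.0779. Without the fold threshold 2 of the 29 had an unadjusted p below 0.05, against 672 of all 46609 probes. With scaled processed signals 3 of the 29 had, against 243 of all 46609 probes. Values were lower in SCE for 10 of 29 probes, against 51.9% of all probes, and for 7 of 29 without SCE cow 833, whose WBC array stood apart (median difference of the 29 probes 0.12). SCE and healthy values did not overlap for 3 of 29 probes, against 1.3% of all probes. The largest of these was TPM2 A_73_P382346, which gave 6.44, 6.72, 6.59 and 6.61 for the healthy cows and 7.38, 7.01, 6.88 and 7.03 for the SCE cows, in the order used above. Any 4 against 4 cows without overlap give an exact two-sided permutation p of 0.0286, the smallest possible, so this value adds nothing to the lack of overlap. The difference of A_73_P382346 was 0.48 ± 0.14, with a limma adjusted p of 1. The second, TPM2 A_73_P313286 (0.36 ± 0.13), shares 17 bases with it and was well above background on 3 of 8 WBC arrays, and the third, MYH11 A_73_P035431 (0.25 ± 0.12), on 1 of 8. The other 3 TPM2 probes overlapped between groups, among them A_73_P252846, with 9.34 to 9.60 in healthy and 8.98 to 10.26 in SCE cows. In the first WBC row SCE was higher for 15 of 29 probes, 6 without overlap (46.4% and 10.7% of all probes). There 4 were lower without overlap (13.8% of all probes). In the second WBC row SCE was higher for 22 of 29, 14 without overlap (51.4% and 22.6% of all probes). There 2 were lower without overlap (20.3% of all probes). The mean level of 5 platelet genes in WBC was 10.28 to 10.77 in healthy and 10.53 to 10.84 in SCE cows, and their part in these differences was not tested. The difference of the SCE effect between endometrium and WBC passed for none of the 29 probes (limma, 0% of all probes with and 0.496% without adjustment).

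Other genes of the muscle apparatus were read against the 19.7% of all probes that were higher and the 26.8% that were lower in endometrium in healthy cows. Of 24 further contractile and cytoskeletal genes, 23 were measured, of which 11 were higher and 6 lower in endometrium in healthy cows (10 and 5 in SCE cows) and none differed between SCE and healthy cows in either tissue (0 also without adjustment). PDLIM3 (an anchor protein of the actin cytoskeleton) lay at 5.18 to 5.71 in WBC, not well above background on any array, and at 8.35 to 13.27 in endometrium, NEXN (an actin-binding protein of muscle) lay at 7.68 to 8.41 and 9.88 to 11.55, and TPM1 (alpha-tropomyosin) at 9.68 to 10.81 and 11.47 to 13.37 (limma adjusted p of 0.000173 or lower in healthy cows). MYL9, the regulatory light chain that MYLK phosphorylates, was 13.29 to 14.48 in WBC and 13.65 to 14.92 in endometrium and did not pass (adjusted p = 0.266). CNN2 and TAGLN2, more widely expressed relatives of CNN1 and TAGLN, were lower in endometrium by 2.94 and 1.69 on the log2 scale. LDB3, PDLIM7, SYNPO2 and ACTC1 were also lower in healthy cows (−1.88, −1.26, −1.03 and −0.99). CNN3, a further calponin gene, was higher by 6.26 (limma adjusted p = 7.67e-12) but well above background on only 1 of 8 WBC arrays. Of a list of 7 non-muscle relatives, 3 were higher and 2 lower in endometrium in healthy cows.

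Of 16 genes that control calcium or the phosphorylation of myosin, 14 were measured, of which 7 were higher and 1 lower in endometrium in healthy cows. They were PRKG1 (the cGMP-dependent protein kinase), higher by 3.95 on the log2 scale, PPP1CB (a catalytic subunit of myosin phosphatase) by 3.36 and ROCK2 (a kinase that inhibits this phosphatase) by 1.43, all well above background on all 16 arrays, and CAV1, KCNMA1, PPP1R14A and PLN, which were well above background on 0, 2, 1 and 0 of 8 WBC arrays and are given no size. RHOA, the switch upstream of ROCK2, was lower by 0.99 (limma adjusted p of 0.00106 or lower for these 8). ITPR1 gave 19.45 on all 16 arrays and CASQ2 was well above background on none, so neither could show a difference. Of 11 regulators of smooth muscle transcription, 6 were measured, with MRTFB and KLF4 higher and MKL1 and MEF2C lower in endometrium. Of 9 striated muscle genes, 8 were measured and none was higher in endometrium, and MYH1, TNNI2 and MYL1 were well above background on none of the 8 endometrial arrays.

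Few genes followed the 10 contractile genes over the biopsies. Likeness to the mean deviation of the contractile genes was measured by Pearson r over 8 endometrial arrays, for 16547 genes well above background. This deviation used probes of highest mean over 16 arrays, among them the DES and ACTG2 probes also listed for other genes. The closest gene (0.97) had no gene symbol and spanned 8.7 to 9.3. The closest 10 included TPM1 (0.93), PDLIM3 (0.90), ATP13A1 (0.92), FARS2 (0.89), RANBP9 (0.89), CD300LB (0.89) and ACTR3B (0.89), and the rest had no gene symbol. With brightest endometrial probes TPM1 (0.94), PDLIM3 (0.93), FARS2 (0.92) and ATP13A1 (0.89) stayed among the closest 10, but RANBP9, CD300LB and ACTR3B did not. Of these, PDLIM3 spanned 8.35 to 13.27 and TPM1 11.47 to 13.37 over the biopsies, whereas FARS2 spanned 8.82 to 9.11 and ATP13A1 11.46 to 11.92. A correlation above 0.7 with the mean deviation on brightest endometrial probes was found for 1.03% of all genes compared and for 4 of 23 further contractile and cytoskeletal genes: TPM1, PDLIM3, MYL9 and FLNA. It was also found for KCNMB1 (0.71) among the calcium and phosphorylation genes and for ACTA1 (0.84) among the striated muscle genes.

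Markers of other cell types in the biopsies took other values in the same cows. The mean deviation of 10 endothelial genes was −0.46 in cow 836, −0.29 in cow 841 and −0.66 in cow 883, and it was 1.81 in cow 833, the biopsy that stood apart. That of 9 stromal genes was −0.53, −0.05 and 0.24 in cows 836, 841 and 883, that of 10 epithelial genes 0.61, 0.58 and 0.26, and that of 8 pericyte and vascular mural genes −0.39, −0.32 and 0.10. None of these 4 lists was high in cows 836 and 841 and low in cow 883 as the contractile genes were. Over all 8 biopsies, Pearson r with the mean deviation of the contractile genes (brightest endometrial probes) was 0.04 for the endothelial list. It was −0.34 for the stromal, 0.18 for the epithelial and −0.48 for the mural list. For the further contractile and cytoskeletal genes it was 0.77, and for the striated muscle genes 0.56. The mean level of the endothelial list was 11.07 to 12.12 in healthy and 11.11 to 13.54 in SCE biopsies, that of the mural list 9.74 to 10.50 and 9.67 to 10.30, that of the stromal list 13.60 to 14.29 and 12.70 to 14.27, and that of the epithelial list 9.63 to 11.26 and 10.34 to 11.30. Every gene of these 4 lists was well above background on at least 1 endometrial array. The share of myometrium in each biopsy was not measured, and its part in the differences between biopsies was not tested.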

How the data were processed

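Circulating WBC and endometrium of 4 SCE and 4 healthy cows were each measured on 1 single-colour Agilent array per cow and tissue. The deposited values were spot intensities before any normalisation, which the authors had read out by Feature Extraction 10.10.1.1 (Agilent), and a second table of intensities that they had quantile-normalised. Here, gMedianSignal without background correction was taken, 1319 control spots and spots with non-uniform or population outlier marks (190 to 465 per array) were left out, log2 values were quantile-normalised over 16 arrays, and spots of 1 probe were averaged. Groups were compared with limma 3.58.1 in R 4.3.3 (TREAT, threshold 1.2-fold, Benjamini-Hochberg adjustment over all probes, called at 0.05). Tissue differences and the interaction came from 1 model of 4 groups, and SCE was compared with healthy within each tissue. p-values measure the spread between cows, and the number of arrays limits their precision. Correlations used exact permutation tests. "Well above background" is the scanner software's mark. Scripts were tested on simulated data.

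The 10 genes and the marker lists were chosen with earlier results of these data known. By rule, a gene was represented by its probe of highest mean over 16 arrays, and list genes likewise. Genes of all probes were named by the files or, for 26517 probes, by RefSeq accession. A bound on a fold uses, per array, the higher of the lowest signal well above background and the probe's own. Each cow gave both tissues, which pairs the samples; deviations of the same cow in both tissues correlated at −0.33 to 0.14. Alternatives were normalisation within tissue, processed signals scaled to the 75th percentile, normexp correction (offset 50), the authors' table, gene means, a background filter, no fold threshold, slide row and cow as blocks, all arrays in 1 fit, each cow left out, and, chosen after seeing the data, the brightest endometrial probe. Builds beyond the header's, and genomic annotation of the probes, were not used here. Probe sequences of ACTG2 are not reported here.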

Additional observations from a re-analysis of the deposited data

Results flagged for a closer look

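The 12 probes that stood for the 10 genes under either choice of probe were checked for single cows that stood apart within a group of 4. Chance alone finds such a cow in about 1 of 20 groups. Of 48 groups, 2 held such a cow, and both were endometrial DES values. On probe A_73_P419516, SCE cow 836 had 15.06 while the other 3 SCE cows had 13.13 to 13.32. On probe A_73_P323881, which is also listed for VIM and PRPH, healthy cow 883 had 11.71 while the other 3 healthy cows had 12.47 to 12.61. Cow 836 was the highest and cow 883 the lowest biopsy over the 10 contractile genes. SMTN A_73_P254421, also described by array, was not among the 12 probes checked. On it, SCE cow 833 had 12.67 in endometrium while the other 3 SCE cows had 9.02 to 9.60.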

How the results depend on the processing

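The share of the 29 probes called higher in endometrium was 79.3% in healthy and 79.3% in SCE cows, and it was 79.3% to 100% and 75.9% to 100% under the other settings, with 75.9% to 82.8% and 72.4% to 79.3% when 1 cow was left out. With the cow as a replicate block it was 79.3% in both, and this block changed no other call. No setting called any of the 29 probes after adjustment between SCE and healthy cows or for the interaction of SCE with tissue. Unadjusted, up to 3 of them had a p below 0.05 in WBC (scaled processed signals), beside 243 of all 46609 probes. For the interaction up to 1 of them had, beside 414 of all 46594 probes with scaled processed signals. The distance between the highest and lowest biopsy moved from 1.78 to 2.48 with brightest endometrial probes, and was 1.24 to 1.78 with 1 cow left out.

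Differences close to 0 changed sign, none of them called in the report. For DES on its probe also listed for VIM, endometrium minus WBC in healthy cows (−0.52) was 0.13 with normalisation within tissue. As the mean of all DES probes it was 3.80 in healthy cows and 3.40 in SCE cows (−0.68 on the probe also listed for VIM). The SCE difference of DES in endometrium (0.08 on that probe) was −0.38 as the mean of its probes. Its correlation with MYH11 (−0.42) was 0.519 without cows 836 and 846 and 0.869 with the brightest endometrial probe. In WBC, SCE minus healthy turned to 0.029 (ACTG2), −0.13 (CNN1) and −0.052 (LMOD1) with scaled processed signals, to −0.000515 (CNN1) and −0.010 (LMOD1) with normexp, and to 0.080 (ACTG2), 0.013 (MYH11), −0.080 (CNN1) and 0.045 (SMTN) as the mean of a gene's probes. The causes were not tested.

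With 1 cow left out, SCE minus healthy in endometrium ranged from −0.56 to 0.27 for ACTG2 and −0.13 to 0.38 for DES. On their brightest endometrial probes it ranged from −0.995 to 1.36 and from −1.11 to −0.11. It ranged from −0.59 to 0.41 for CNN1, −0.55 to 0.15 for MYLK, −0.22 to 0.57 for LMOD1 and −0.27 to 0.29 for SMTN. In WBC it ranged from −0.092 to 0.24 for ACTA2, −0.086 to 0.11 for ACTG2, −0.053 to 0.19 for CNN1, −0.0096 to 0.17 for LMOD1, −0.55 to 0.11 for MYH11, −0.19 to 0.088 for SMTN and −0.13 to 0.19 for TAGLN. The tissue difference of ACTG2 on its probe also listed for ACTC1 ranged from −0.022 to 0.91 in healthy and −0.18 to 0.56 in SCE cows. On its brightest endometrial probe it ranged from 4.36 to 6.39 in healthy and 4.39 to 6.05 in SCE cows. Probes not well above background in WBC give bounds only.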
